A study of Caenorhabditis elegans with 6 samples.

Results

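The genes described here are 7 genes of C. elegans that bind, store or move metals: the metallothioneins mtl-1 and mtl-2, the ferritins ftn-1 and ftn-2, the divalent metal importer smf-3 and the zinc transporters cdf-2 and ttm-1. They were picked by gene name out of 16391 genes in the deposited table, and each name stood on 1 row. The libraries were made from whole worms of the wild-type strain N2 at the L4 larval stage, fed E. coli OP50, with 3 libraries from 25°C-cultivated worms and 3 from 15°C-cultivated worms. According to the methods, L4 parents were moved to each temperature and their progeny hatched and grew there, while the sample records describe growth from synchronized L1 larvae. The records do not say whether the 3 libraries of a temperature came from separate cultures, so the p-values measure only the spread between these libraries.

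Metallothioneins are small proteins rich in cysteine, whose sulfur atoms hold zinc, copper and cadmium. Ferritins form a shell around stored iron, and importers and exporters in the gut membrane and in gut granules set how much metal enters, is stored and is released. In C. elegans much of this happens in the intestine, where the nuclear receptor HIZR-1 senses zinc and the factor HIF-1 controls ftn-1 and smf-3 according to iron supply.

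Expression was given as FPKM, the fragments of a gene per kilobase of its transcript, scaled to the mapped fragments of the library. Fold changes are differences of log2(FPKM + 0.5), 25°C over 15°C, and this scale understates the change of low values. Of all genes, 12996 averaged 1 FPKM or more and were tested with limma, and all 7 metal-handling genes were among them. Calls needed a log2 fold change outside -1 to 1 together with an adjusted p under 0.01, thresholds taken from the study's methods. By these limits 2 of the 7 genes were called higher at 25°C, mtl-1 and cdf-2, against 6.96% of all tested genes. Of these, mtl-1 was listed at 0 in every library at 15°C and was tested only through its values at 25°C, so cdf-2 was the only called gene with values at both temperatures. None of the 7 was called lower by limma, where 5.59% of all tested genes were. At an unadjusted p under 0.05, 1 of the 7 was lower by limma (ftn-2), where 26.9% of all tested genes were lower and 22.9% higher. There was no overlap between the 25°C and 15°C libraries in mtl-1 and cdf-2, which were higher at 25°C (25.9% of all tested genes were higher without overlap), nor in ftn-2 and ttm-1, whose 25°C libraries were all below those at 15°C (28.7% of all tested genes). In whole worms, fewer cells of a type and less RNA per cell cannot be told apart. Over the 7 genes the log2 fold change had a median of -0.25, against -0.032 for all tested genes. The depth of the libraries is unknown, since FPKM hold no counts. Their FPKM summed to between 2663992 and 2776526 at 25°C and between 2865856 and 3313082 at 15°C.

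**Figure D1:**
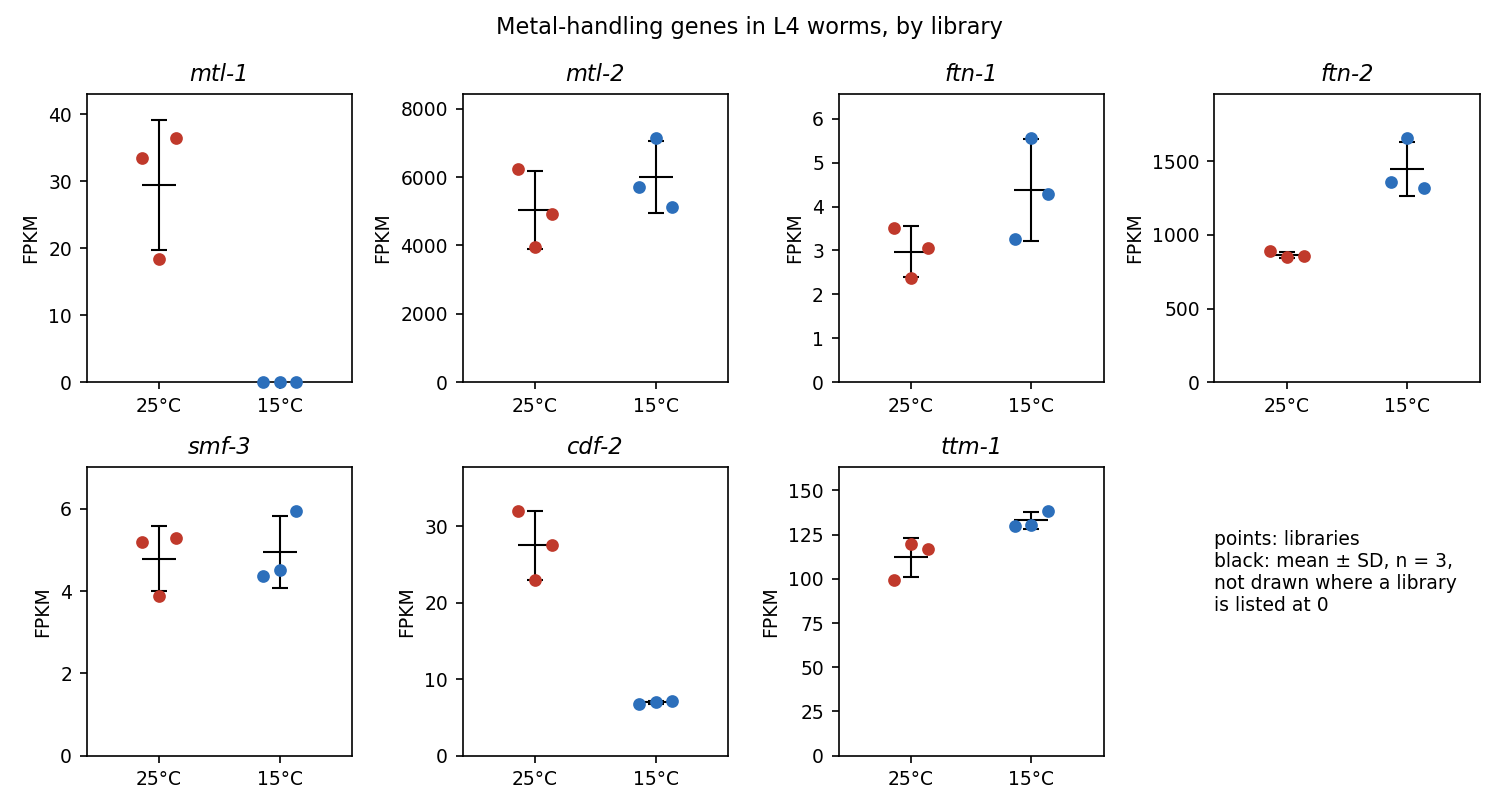
FPKM of each of the 7 genes, with the 3 libraries at 25°C left of the 3 at 15°C as points and the mean ± SD in black where no library is listed at 0, on a separate axis from 0 for each gene. mtl-1 (18.4 to 36.5 FPKM at 25°C, 0 at 15°C) and cdf-2 (23.0 to 32.0 FPKM at 25°C, 6.74 to 7.17 FPKM at 15°C) are higher at 25°C, ftn-2 and ttm-1 lie lower, and the other genes overlap.

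The metallothionein genes lie apart on chromosome V of WBcel235, and no other annotated gene overlaps either of them. mtl-1 spans 6691371 to 6691863 on the minus strand, with 373 exonic bases in 2 exons of a single transcript, and mtl-2 spans 14018270 to 14018673 on the same strand, with 347 exonic bases in 2 exons. mtl-1 had 33.5, 18.4 and 36.5 FPKM in the 25°C libraries, against 0, 0 and 0 in the 15°C libraries. It was called higher at 25°C, but it passed the filter on low values only through the libraries at 25°C. Its zeros at 15°C fix that call, so no p is given for it. No fold can be given against a group at 0. The fitted log2 fold change of 5.85 depends on the pseudocount and is no bound: adding 1 FPKM gave 4.87 and adding 0.1 FPKM gave 8.15. mtl-2 had 6248, 3963 and 4905 FPKM in the 25°C libraries, against 5698, 7154 and 5110 in the 15°C libraries. These libraries overlapped, and mtl-2 was not called (log2 fold change -0.26, 95% interval -0.72 to 0.20, adjusted p = 0.33). In mean level mtl-2 ranked 93 among the 12996 tested genes, while mtl-1 at 25°C had a mean of 29.5 FPKM. The FPKM of mtl-2, per length, was far above that of mtl-1 in every library.

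mtl-1 is also a gene for which the study lists qPCR primers, shown here because they give the only sequence of the gene used here. The primers are for mtl-1 on chromosome V, each of 20 bases, written 5′ to 3′. The capitals mark the 2 cysteine codons that the forward primer holds when read in steps of a codon from its start, which is an ATG.
mtl-1 forward: atggctTGCaagTGTgactg
mtl-1 reverse: cacatttgtctccgcacttg
Cysteine is the residue with which metallothioneins hold metal.

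An exact 0 in this table can be a failed estimate, above all in a short gene. Among genes with a mean of 10 FPKM or more, 25.0% of those with up to 300 exonic bases were listed at 0 in at least 1 library (37 of 148). The share was 7.72% at 301 to 450 bases (42 of 544, with mtl-1 among the 42), the range in which both metallothioneins fall. At 901 bases or more it was 0.104% (6 of 5749). Of 134 other genes of 301 to 450 bases with a 25°C mean within 2-fold of that of mtl-1, 18 (13.4%) were listed at 0 in at least 1 library at 15°C, among them 2 in all 3, and the median of their 15°C means was 29.9 FPKM. In the whole table, 5 genes, mtl-1 among them, had 10 FPKM or more in each library at 25°C but 0 in the 3 libraries at 15°C. The opposite was seen in 4 genes. Whether mtl-1 was without message at 15°C was not tested.

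**Figure D2:**
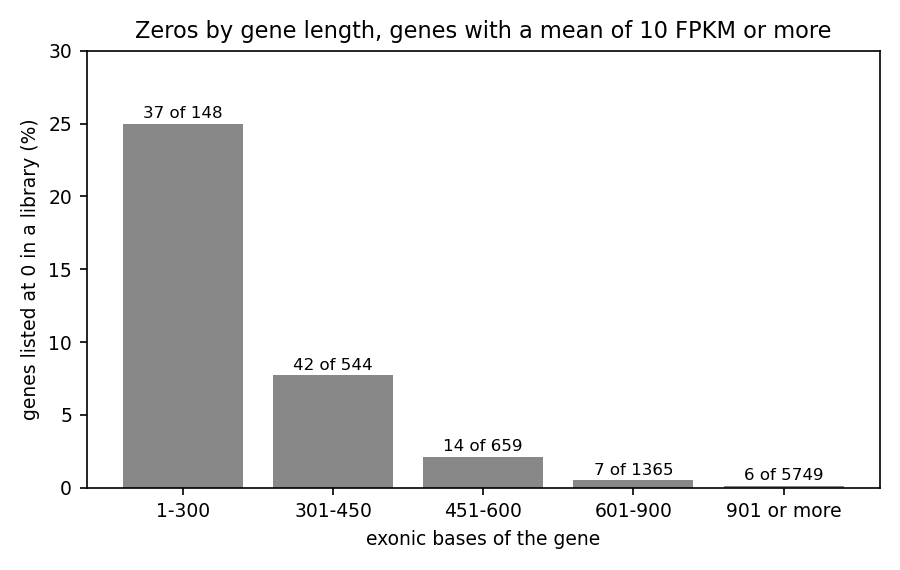
Share of genes listed at 0 in at least 1 of the 6 libraries (vertical axis, percent) by exonic length (horizontal axis, bases), among genes with a mean of 10 FPKM or more; the label on each bar gives the number of genes at 0 and the number in the bin. The share is 25.0% up to 300 bases and 0.104% at 901 bases or more. It is 7.72% at 301 to 450 bases, where mtl-2 and mtl-1 fall, with mtl-1 counted among those at 0.

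The ferritins differed from each other in level far more than either differed between the temperatures. ftn-2, which encodes a ferritin heavy chain found in many tissues, lies on chromosome I from 3680180 to 3680927 on the minus strand, with 651 exonic bases. It had 890.0, 851 and 858 FPKM in the 25°C libraries, against 1363, 1662 and 1323 in the 15°C libraries. The 25°C libraries lay close together, all below those at 15°C, at 866 ± 20.7 FPKM against 1449 ± 185 FPKM (SD, n = 3 each). The mean was 40.2% lower at 25°C, a log2 fold change of -0.73 (standard error 0.12, 95% interval -1.005 to -0.46). ftn-2 passed the test but not the 2-fold limit (adjusted p = 0.0034), and was the only 1 of the 7 genes to fall at an adjusted p under 0.01, where 9.76% of all tested genes were lower by that limit at any fold. Over the alternatives its log2 fold change ran from -0.88, with a correction for exonic length, to -0.55, with equal library sums. Its adjusted p ran between 0.0007 and 0.02. It was above 0.01 when any library at 25°C was left out (0.012 for replicates 1 and 2, 0.02 for replicate 3, at -0.75, -0.72 and -0.73), when 15°C replicate 1 was left out (0.011, at -0.77) and with a replicate block (0.011, at -0.73).

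ftn-1, the ferritin gene of the intestine, lies on chromosome V from 7546468 to 7547579 on the minus strand, with 606 exonic bases. It had 3.50, 2.37 and 3.06 FPKM in the 25°C libraries, against 3.26, 5.57 and 4.28 in the 15°C libraries. The groups overlapped, and the log2 fold change of -0.47 was not called (95% interval -1.04 to 0.10, adjusted p = 0.16). ftn-2 stood at 254, 360 and 280 times the FPKM of ftn-1 in the 25°C libraries, against 418, 298 and 309 times in the 15°C libraries. The methods used here do not tell how reads shared between the ferritin genes would have been assigned. The iron importer smf-3, a homolog of the mammalian transporter DMT1 that takes up divalent metals in the gut, lies on chromosome IV from 2618869 to 2625503 on the plus strand. It had 5.19, 3.88 and 5.30 FPKM in the 25°C libraries, against 4.38, 4.53 and 5.95 in the 15°C libraries. The libraries were mixed between the temperatures, with a log2 fold change of -0.04 (95% interval -0.52 to 0.43, adjusted p = 0.88), and the sign turned with equal library sums (0.12).

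cdf-2, which loads zinc into the storage granules of intestinal cells, was higher at 25°C. It lies on chromosome X from 12464640 to 12466917 on the minus strand. It had 32.0, 23.0 and 27.5 FPKM in the 25°C libraries, against 6.74, 6.999 and 7.17 in the 15°C libraries. Every library at 25°C was over 3 times the highest at 15°C. The means were 27.5 ± 4.49 FPKM at 25°C, against 6.97 ± 0.216 at 15°C (SD, n = 3 each), a ratio of 3.94 and a log2 fold change of 1.89 (standard error 0.16, 95% interval 1.53 to 2.26, adjusted p = 0.00032). The call was kept in each of the 15 alternatives, with log2 fold changes from 1.78 to 2.07. cdf-2 has 2 annotated transcripts, of 1352 and 183 exonic bases, and the table gives a single value for both. Its values at 25°C carry more than 6 significant digits and those at 15°C do not. Such longer values stood in 91.0% of genes with 2 or more annotated transcripts and in 42.8% of genes with 1, among genes above 0 in every library. Whether the value is a sum over transcripts is not given in the sources used here, and the transcripts could not be told apart.

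ttm-1 is named as a toxin-regulated target of the p38 MAP kinase pathway, and a form of its protein exports zinc from intestinal cells. It lies on chromosome III from 12952969 to 12966995 on the minus strand, with 3 annotated transcripts. It had 99.6, 119.6 and 117 FPKM in the 25°C libraries, against 130.1, 131 and 138 in the 15°C libraries. The groups did not overlap, with means of 112 ± 10.9 FPKM at 25°C, against 133 ± 4.60 at 15°C (SD, n = 3 each). The log2 fold change of -0.25 was not called (95% interval -0.51 to 0.01, adjusted p = 0.11), and it was -0.06 with equal library sums. In an exact two-sided permutation test p was 0.10 for cdf-2, ftn-2 and ttm-1. With 3 libraries on each side the test can reach no lower value, and groups that do not overlap always give it. It was 0.40 for mtl-2, 0.20 for ftn-1 and larger for smf-3. No p is given for mtl-1, where the zeros at 15°C fixed it.

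Related genes were also compared within each library, where their ratio hardly depends on how the libraries are scaled. The log2 ratio of cdf-2 over ttm-1 was -1.62, -2.35 and -2.07 at 25°C and -4.17, -4.13 and -4.18 at 15°C, a difference of 2.14. Every library at 25°C was above those at 15°C in this ratio. For mtl-1 over mtl-2 the log2 ratio was -7.52, -7.71 and -7.05 at 25°C and -13.48, -13.80 and -13.32 at 15°C, where mtl-1 stands only for the pseudocount. For ftn-1 over ftn-2 it was -7.80, -8.21 and -7.91 at 25°C and -8.50, -8.10 and -8.11 at 15°C. That difference of 0.26 lay within overlapping libraries (exact two-sided permutation p = 0.30, unadjusted). For cdf-2 over ttm-1 the exact permutation test gave p = 0.10, unadjusted, the lowest value it can reach. The separation of mtl-1 over mtl-2 was fixed by the zeros of mtl-1 at 15°C, and no p is given for it. An adjustment over the 3 pairs would count that pair and is not given either.

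Across the 7 genes, the levels at 25°C ran in the order mtl-2, ftn-2, ttm-1, mtl-1, cdf-2, smf-3 and ftn-1, per length of transcript. In this order mtl-1 and cdf-2 were the only neighbours whose libraries overlapped. At 15°C the order was mtl-2, ftn-2, ttm-1, cdf-2, smf-3 and ftn-1, with mtl-1 listed at 0, and smf-3 and ftn-1 overlapped. mtl-2 and ftn-2 held the top of the order at both temperatures.

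The other metal genes examined were 56 genes in lists of zinc, iron and manganese, heme, copper and heavy-metal response genes, of which 46 were found in the table and 44 were tested. Of these, 1 was called higher and 3 were called lower at 25°C, where 6.96% and 5.59% of all tested genes were, and their median log2 fold change was 0.07. Of the 17 tested zinc genes, zipt-2.3 was called lower and zipt-13 higher. zipt-2.3 encodes a ZIP-family transporter that releases zinc from the same intestinal granules that CDF-2 fills. It had 1.85, 1.77 and 1.82 FPKM in the 25°C libraries, against 11.6, 11.2 and 12.4 in the 15°C libraries, which on the log2 scale was -2.401 (standard error 0.15, adjusted p = 0.00014). The libraries at 25°C were far below those at 15°C, and the call was kept in each of the 15 alternatives. zipt-13, another gene of the ZIP family, averaged 254 ± 22.4 FPKM at 25°C, against 126 ± 20.9 at 15°C (SD, n = 3 each), a log2 fold change of 1.01. The call did not hold when 25°C replicate 3, 15°C replicate 1 or 15°C replicate 2 was left out, nor with a correction for exonic length, with values of 0.94, 0.96, 0.93 and 0.94, and it ran up to 1.197 with equal library sums.

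**Figure D3:**
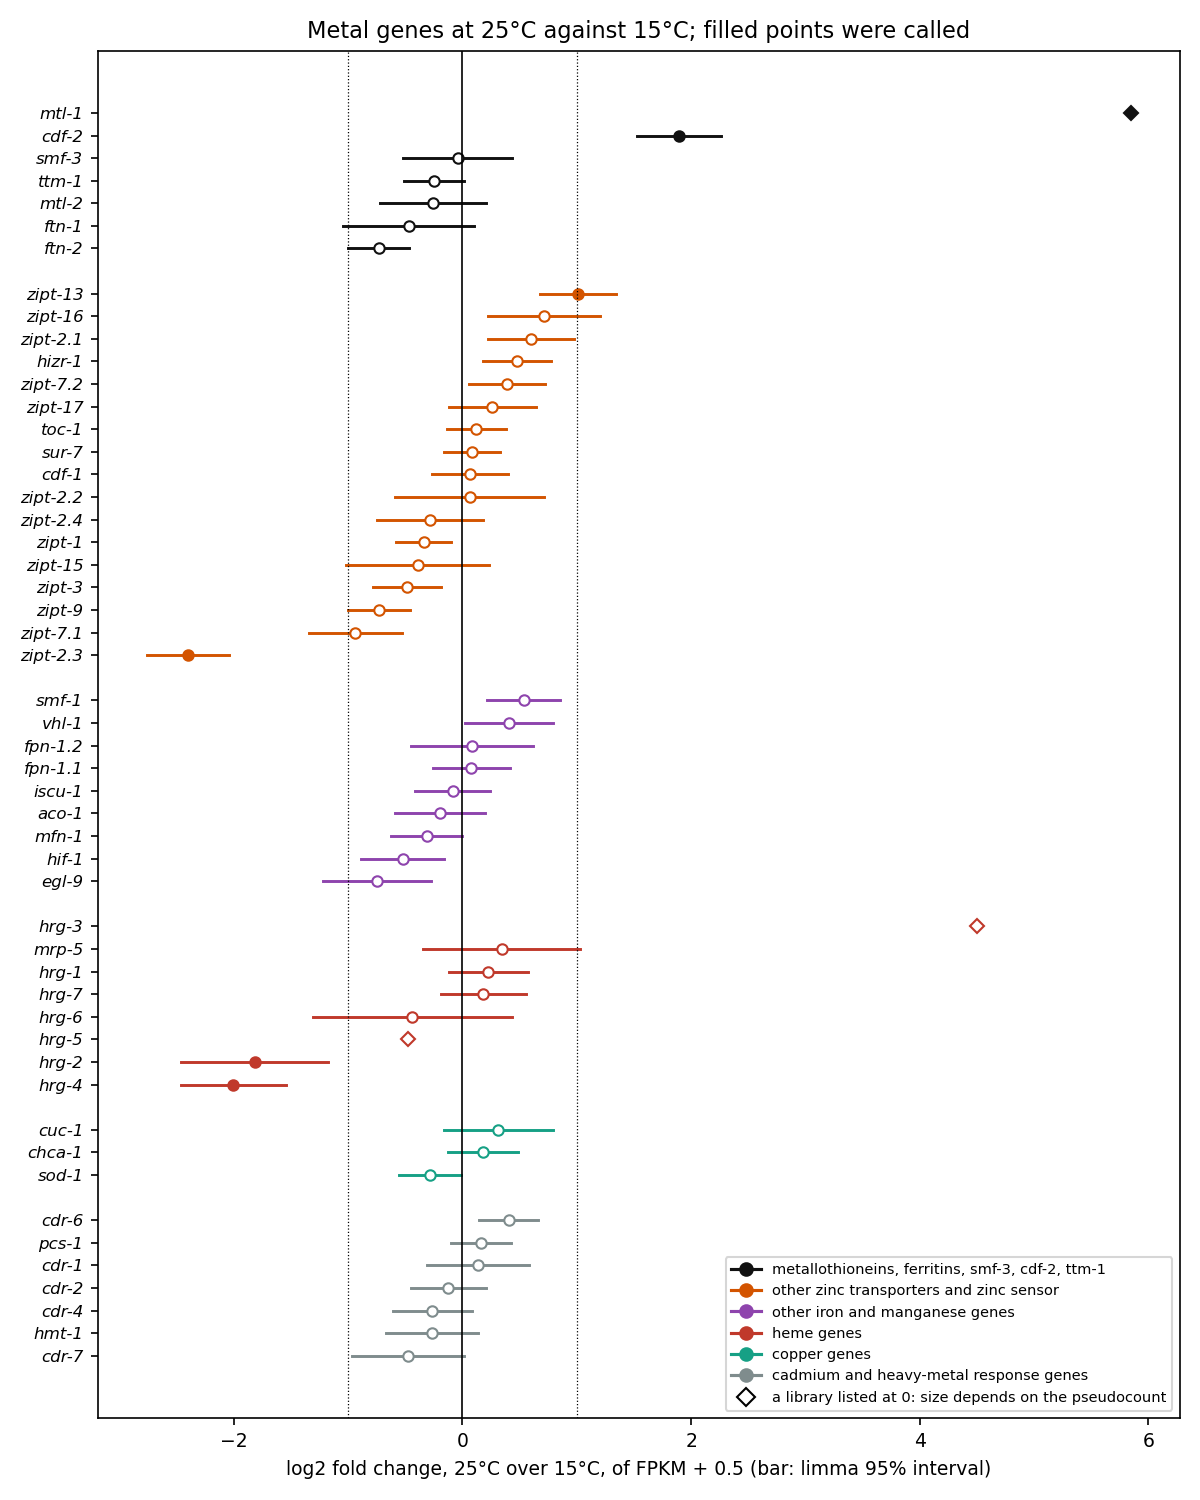
Log2 fold change, 25°C over 15°C, of FPKM + 0.5 for the 7 genes (top) and the other tested metal genes by list, with 95% limma intervals as bars, filled points for called genes, diamonds without a bar for genes with a library listed at 0, and dotted lines at -1 and 1. cdf-2 at 1.89 and zipt-2.3 at -2.401 are the called zinc genes farthest from 0 with values at both temperatures, and hrg-4 lies at -2.01.

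The zinc sensor gene hizr-1 averaged 12.8 ± 0.467 FPKM at 25°C, against 9.07 ± 0.236 at 15°C (SD, n = 3 each). The libraries did not overlap, but with a log2 fold change of 0.47 and an adjusted p of 0.023 from limma it was not called. In C. elegans, HIZR-1 is known to act on genes such as cdf-2, mtl-1 and ttm-1 when zinc is in excess. zipt-7.1, which is needed for sperm activation, and zipt-9 lay lower at 25°C at an adjusted p under 0.01 but within 2-fold, with log2 fold changes of -0.94 and -0.73. By that limit at any fold, 3 of the 17 tested zinc genes were lower, zipt-2.3 among them, and 1 was higher. Of all 12996 tested genes, 1269 (9.76%) were lower by it and 1278 higher. The other zinc transporter genes of the cation diffusion facilitator family, cdf-1, sur-7 and toc-1, had log2 fold changes between 0.07 and 0.12. The 13 zinc genes with an adjusted p over 0.01 lay between -0.49, for zipt-3, and 0.71, for zipt-16.

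None of the 9 tested iron and manganese genes was called by limma, where 6.96% of all tested genes were called higher and 5.59% lower. At an unadjusted p below 0.05 by limma, 2 of the 9 lay higher and 3 lower, by which 22.9% and 26.9% of all tested genes did. The lowest value was that of egl-9, the prolyl hydroxylase that marks HIF-1 for degradation, with a log2 fold change of -0.75 (adjusted p = 0.023), and the highest that of smf-1, a relative of smf-3, with 0.53 (adjusted p = 0.020). hif-1 itself averaged 61.1 ± 5.92 FPKM at 25°C, against 88.7 ± 15.6 at 15°C (SD, n = 3 each), a log2 fold change of -0.52 (adjusted p = 0.032). aco-1, the cytosolic aconitase related to the iron regulatory proteins of mammals, was at -0.19 (adjusted p = 0.39). smf-2 did not pass the filter, with 0.169 FPKM or less in every library.

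Of the 8 tested heme genes, hrg-4 and hrg-2 were called lower and none higher, where 5.59% and 6.96% of all tested genes were. C. elegans cannot make heme and takes it from its food, and HRG-4 imports it at the gut surface. hrg-4 had 13.03, 12.62 and 13.2 FPKM in the 25°C libraries, against 71.1, 51.8 and 41.8 in the 15°C libraries, or -2.01 on the log2 scale (standard error 0.20, adjusted p = 0.00058), and it was called in each of the 15 alternatives. The libraries at 25°C hardly differed from each other and all lay below those at 15°C. hrg-2, a heme protein of the epidermis, was low throughout, at 0.261, 0.39 and 0.577 FPKM in the 25°C libraries, against 3.55, 2.16 and 2.47 in the 15°C libraries (log2 fold change -1.82, adjusted p = 0.0030). Its call was lost without 25°C replicate 1 (-1.70, adjusted p = 0.012), without 15°C replicate 1 (-1.64, adjusted p = 0.013) and with a replicate block (-1.82, adjusted p = 0.015). With a minimum of 5 FPKM hrg-2 was not tested. hrg-3 encodes a small secreted protein that carries heme from the intestine to oocytes, and with 450 exonic bases it is a short gene. It had 56.7, 15.5 and 68.7 FPKM in the 25°C libraries, against 0, 0 and 21.2 in the 15°C libraries. The libraries overlapped and it was not called (adjusted p = 0.042).

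**Figure D4:**
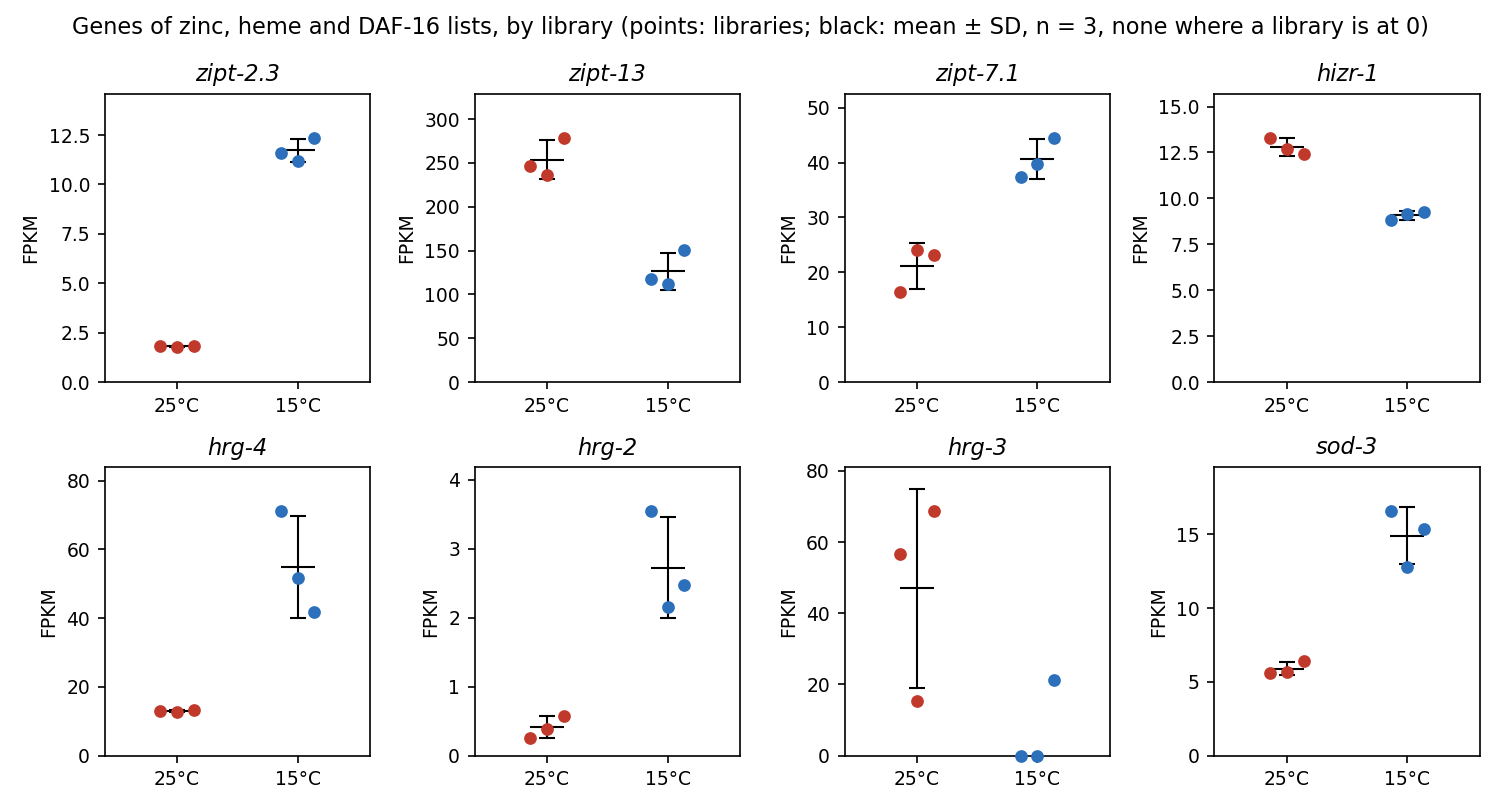
FPKM of zinc genes (zipt-2.3, zipt-13, zipt-7.1, hizr-1), heme genes (hrg-4, hrg-2, hrg-3) and the superoxide dismutase gene sod-3, with the 3 libraries at 25°C left of the 3 at 15°C as points, the mean ± SD in black where no library is at 0, and a separate axis from 0 for each gene. zipt-2.3 (1.77 to 1.85 FPKM at 25°C, 11.2 to 12.4 FPKM at 15°C), hrg-4 and sod-3 lie lower at 25°C without overlap, and hrg-3 overlaps.

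No copper gene and no heavy-metal response gene was called by limma, of 3 and 7 tested. Of all tested genes, 6.96% were called higher and 5.59% lower, so few or no calls would be usual among 10 genes. At an unadjusted p under 0.05 by limma, cdr-6 alone of the 10 was higher (0.40) and sod-1 alone was lower (-0.28). By that limit 22.9% of all tested genes were higher and 26.9% lower. The heavy-metal response genes lay between -0.47, for cdr-7, and 0.40, for cdr-6. pcs-1, which makes the metal-binding phytochelatins, averaged 22.5 ± 0.623 FPKM at 25°C, against 20.1 ± 0.680 at 15°C (SD, n = 3 each), and hmt-1, the transporter needed for cadmium tolerance, 22.3 ± 0.693 FPKM at 25°C, against 27.4 ± 6.37 at 15°C. cdr-1, which cadmium induces strongly in the intestine, was at 6.32 ± 0.749 FPKM at 25°C, against 5.75 ± 1.03 at 15°C. cuc-1, the copper chaperone gene and also a short one with 395 exonic bases, had 5728 ± 1157 FPKM at 25°C, against 4632 ± 1090 at 15°C.

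mtl-1 is known as a target of DAF-16, the transcription factor of the insulin pathway. Of 6 other such targets, sod-3 was called lower at 25°C and 0 were called higher, where 5.59% and 6.96% of all tested genes were. sod-3, a mitochondrial superoxide dismutase gene, had 5.60, 5.65 and 6.42 FPKM in the 25°C libraries, against 16.6, 12.8 and 15.4 in the 15°C libraries, a log2 fold change of -1.26 (adjusted p = 0.0014). The libraries of sod-3 did not overlap between the temperatures. At an unadjusted p under 0.05 by limma, 2 of the 6 were higher and 2 lower, against 22.9% and 26.9% of all tested genes. The highest value was that of icl-1, the glyoxylate cycle gene, with 0.95 (adjusted p = 0.0046). The lowest value was that of hsp-12.6, a small heat shock gene, at -1.50 (adjusted p = 0.053), and the median over the 6 genes was -0.42. Any part of DAF-16 in the values of mtl-1 was not tested.

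The genes with the most similar pattern were found by the root-mean-square difference of mean-centred log2 values over the 6 libraries, among 8633 tested genes with a mean of 10 FPKM or more. For cdf-2 they were Y57A10A.14, phg-1 and cyp-35A5, a cytochrome P450 gene, at differences of 0.07, 0.08 and 0.09 and with log2 fold changes of 1.93, 1.98 and 1.94. For ftn-2 they were W04C9.4, arx-7 and R05H5.3, at 0.05, 0.06 and 0.06. The nearest to mtl-1 was F45E12.6 (0.18), also listed at 0 in the 15°C libraries, and then pud-4 and pud-3 (0.37 and 0.42). At 15°C mtl-1 stands only for the pseudocount, which sets how near pud-4 and pud-3, with means of 8.43 and 17.7 FPKM there, come to it. Whether these genes share any control with mtl-1 was not tested. The nearest genes were popl-7 for mtl-2 (0.04), C24H11.5 for ftn-1 (0.08), hot-8 for smf-3 (0.08) and Y106G6H.14 for ttm-1 (0.03). These distances describe 6 libraries in 2 groups only.

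Markers of tissue and stage were read beside these results. The 8 intestine markers, none at 0, summed to between 2376 and 2431 FPKM at 25°C and between 2025 and 2599 FPKM at 15°C. Of them elt-7, a GATA factor of the intestine, was called higher (log2 fold change 1.11), a call lost without 25°C replicate 3 (1.08, adjusted p = 0.01) or 15°C replicate 1 (0.99) and with the exonic length correction (0.97). vha-6, a proton pump subunit gene of the intestine, was higher within 2-fold (0.90, adjusted p = 0.0034), elt-2, the main GATA factor there, was at -0.05, and the lowest value was that of the peptide transporter gene pept-1 (-0.43). The median over the 8 was 0.26, with 5 markers higher and 2 lower without overlap between the temperatures, where 25.9% and 28.7% of all tested genes were. The actin gene act-5 made up much of the sum, with 1163 ± 24.1 FPKM at 25°C, against 1431 ± 222 at 15°C (SD, n = 3 each). The 8 yolk and oocyte markers, none at 0, summed to between 1781 and 2175 FPKM at 25°C and between 3203 and 5251 FPKM at 15°C. Of these, vit-4, vit-5, rme-2, cbd-1 and egg-1 were called lower and none higher, where 5.59% and 6.96% of all tested genes were. The median over the 8 was -1.61, from -2.19 for cbd-1 to -0.45 for puf-5. Without 15°C replicate 1 the calls of rme-2, cbd-1 and egg-1 were lost (-2.14, -2.15 and -1.67), without 15°C replicate 3 those of cbd-1 and egg-1 (-2.03 and -1.50), and without 25°C replicate 3 that of cbd-1 (-2.14), as with a replicate block. The 4 muscle markers summed to between 1522 and 1942 FPKM at 25°C and between 1958 and 2293 FPKM at 15°C, and the 7 neuron markers to between 518 and 539 FPKM at 25°C and between 439 and 521 FPKM at 15°C, none at 0. No muscle or neuron marker was called, where 6.96% of all tested genes were called higher and 5.59% lower. In muscle mup-2 was lowest (-0.35) and myo-3 highest (-0.20). In neurons rab-3 was lowest (-0.11) and unc-64 highest (0.80, adjusted p = 0.0025 by limma). The part of these marker levels in the changes of the metal genes was not tested.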

How the data were processed

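RNA-seq libraries of whole N2 worms at the L4 stage, 3 at 25°C and 3 at 15°C, were made with a stranded mRNA kit and sequenced paired-end. Alignment by the authors was to WBcel235 with TopHat2 2.0.6, per the labels, and they quantified genes with the Cufflinks tools. The deposited unit is FPKM, with a value per gene and library. Which annotation and filters the authors applied was not stated. Columns were matched to libraries by title.

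Genes averaging 1 FPKM or more over the 6 libraries entered a limma fit (version 3.58.1, R 4.3.3) on log2(FPKM + 0.5), without rescaling or covariates and with a variance trend on the mean. Its tests were two-sided, with Benjamini-Hochberg adjustment over every gene in the fit. Intervals are 95% limma intervals. The fit was checked on simulated data. Exact permutation tests enumerated the 20 arrangements of 6 libraries. Coordinates, exonic lengths and overlaps come from the Ensembl release 115 annotation of WBcel235, matched by name, and sequence names of iscu-1 and chca-1 were matched through RefSeq. Summaries used pandas 2.3.3 and numpy 2.4.6 under Python 3.11.15, and plots matplotlib 3.10.9.

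The 7 genes and all lists were chosen with earlier results of these data known. Named are all 7 genes, the called genes and the highest and lowest gene of each list, regulators chosen by role, and the nearest genes in pattern. A few others, zipt-9, zipt-7.1, cdf-1, sur-7, toc-1, zipt-3, zipt-16, cdr-1, smf-2, vha-6 and act-5, were named after their values were seen. Genes listed but not found in the table were not analysed here. The planned search for motifs in promoters was not run, as no promoter sequences were used here. Alternatives were other pseudocounts (0.1 and 1), a fit of all genes, a minimum of 5 FPKM, median-ratio scaling, equal library sums, a lowess correction for exonic length (span 0.3), an adjusted p under 0.05, a replicate block and each library left out.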

Additional observations from a re-analysis of the deposited data

How the results depend on the processing

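cdf-2 was called higher, and none of the 7 was called lower, in each of the 15 alternatives. mtl-1 was called higher in them too, but its zeros at 15°C fix that call, so it says nothing about stability. smf-3 changed sign with equal sums (0.12), and ran from -0.12 to 0.087 with a library left out. With equal sums the median of all tested genes moved to 0.15, and 1214 genes were called higher and 421 lower, against 904 and 726 with the values as deposited. With a library left out, between 561 and 855 genes were called higher and between 320 and 826 lower. Of the other metal genes, 0 were called higher and 3 lower with the exonic length correction, where 862 and 804 of all genes were. At an adjusted p under 0.05, 2 were called higher and 3 lower, where 1085 and 977 of all genes were. With a library left out, 0 to 2 of them were called higher and 2 to 4 lower. Whether the replicate numbers pair the libraries is unknown. Same-numbered libraries had correlations of -0.035, -0.10 and -0.050 in their deviations, and differently numbered ones between -0.12 and 0.16. Such weak values from so few libraries cannot decide it. With the replicate block 597 genes were called higher and 406 lower. ftn-2 had an adjusted p of 0.011 under that block, within a range of 0.0007 to 0.02 over its alternatives. The 5 FPKM filter removed ftn-1 and smf-3. Depth is unknown, so no counting error can be given for low values such as those of ftn-1.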
